A study of Mus musculus with 3 samples.

Results

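Fibroblast nuclei were examined in 3 single-nucleus RNA libraries of mouse submandibular glands, which are major salivary glands. They numbered 1915 of the 27633 nuclei kept after filtering, 732 of them irradiated + pilocarpine, 556 irradiated + saline and 627 non-irradiated. Nuclei were chosen by their own RNA counts. A nucleus was taken when it held RNA of at least 3 of the 8 genes Lama2, Lsamp, Pdgfra, Adamts12, Abca8a, Col6a3, Cdh11 and Zfhx4. It could hold at most 1 of the 8 genes Flt1, Ptprb, Ptprc, Ptprz1, Fhod3, Kcnj3, Stxbp5l and Cdh19, which mark other cells. It also needed at least 500 detected genes, and at most 5% of its unique molecular identifiers (UMIs, single captured RNA molecules) could be mitochondrial.

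The series set out to follow cell identities and signalling pathways between treatment groups. All glands came from wild-type mice, and each group was 1 library. The irradiated + pilocarpine glands were taken 90 days after irradiation by the titles and 93 days by the protocol, with pilocarpine from day 30 to day 90. Pilocarpine is an agonist of muscarinic acetylcholine receptors that makes the gland secrete. The irradiated + saline glands were taken at the same time after irradiation, with saline in place of the drug. The non-irradiated glands are labelled as having no treatment, and their labels name no saline, so irradiation and saline cannot be told apart in the comparison with them. The labels give neither the number of mice in a library, nor their sex, nor the hour of collection. Nuclei were freed from frozen glands, stained with DAPI, sorted, and profiled with a droplet kit that reads the 3′ end of transcripts. With no second library in any group, no test between groups was possible. The intervals below are 95% intervals of counting error only, and a difference between groups cannot be told apart from a difference between libraries.

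Fibroblasts lay down and remodel the collagen and proteoglycan matrix between the secretory units of the gland. They also supply the epithelium with growth factors such as Fgf10, and they answer interferons, glucocorticoids and injury with distinct gene programmes. In irradiated salivary glands fibrosis is a known late outcome, and matrix genes are therefore of interest. Interferon gamma is known for inducing guanylate-binding proteins, immunity-related GTPases and the antigen-presenting MHC class I pathway, whereas type I interferons induce antiviral genes of the Oas and Ifit families.

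The label was checked with 13 fibroblast markers that the rule did not use. Of these, 12 were at least 5 times as high in the chosen nuclei as in all other nuclei of the same library, in all 3 libraries. Dcn, which encodes the small proteoglycan decorin, stood at 815, 853 and 485 counts per 1000000 UMIs (CPM) in fibroblast nuclei of the irradiated + pilocarpine, irradiated + saline and non-irradiated libraries. In all other nuclei Dcn stood at 63.1, 47.5 and 32.4 CPM in the same order. The exception was Dpt, with 12, 14 and 1 UMIs in fibroblast nuclei. Markers of adipocytes were at 0 for all 5 genes of the list in all 3 libraries. They summed to at most 0.662 CPM in all other nuclei too, so their absence does not set the chosen nuclei apart. Endothelial markers, with 7, 6 and 8 of 9 genes detected and Cdh5 at 0, summed to 96.3, 86.3 and 54.4 CPM. In clusters 0 and 1, described below, they summed to 131, 123 and 89.6 CPM, against 120, 103 and 99.3 CPM in all other nuclei. Since all genes of these nuclei depend on how they were chosen, these values describe the choice and carry no test.

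Fibroblast nuclei were shallow, with a median of 1556 UMIs with pilocarpine, 1732.5 UMIs with saline and 1397 UMIs without irradiation. Their summed UMIs came to 1650966, 1332395 and 1415437 in that order. The libraries shared 28 to 33 cell barcodes per pair, of which 1 per pair was a fibroblast nucleus in both. At the edge of the rule, 69, 47 and 61 nuclei held exactly 3 of the marker genes and were chosen, with the rule's markers summing to 4286, 2567 and 2619 CPM. Just outside, 94, 120 and 151 nuclei held exactly 2, with 921, 606 and 978 CPM. Of nuclei with enough markers, 143, 193 and 134 were left out for holding exactly 2 excluded genes. Cdh19, usually a Schwann cell gene, was the excluded gene seen most, in 41.9%, 49.5% and 26.0% of the chosen nuclei. A list of 9 Schwann markers was also higher in the chosen nuclei than elsewhere. It summed to 1914, 2820 and 1563 CPM, against 625, 654 and 485 CPM in all other nuclei. In clusters 0 and 1, described below, it summed to 2553, 3986 and 2691 CPM.

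RNA of secretory cells was present in the fibroblast nuclei and differed between libraries. Acinar products, on a list of 21 genes, summed to 60210, 37117 and 52551 CPM in fibroblast nuclei of the irradiated + pilocarpine, irradiated + saline and non-irradiated libraries. In all other nuclei they summed to 74696, 62907 and 65498 CPM. Epithelial markers, with 11 of 12 genes detected and Krt19 at 0, summed to 556, 543 and 850 CPM in fibroblast nuclei, against 1267, 1311 and 1398 CPM in all other nuclei. Duct products summed to 1768, 4383 and 3096 CPM in fibroblast nuclei, and to 1513, 1517 and 1650 CPM in clusters 0 and 1, described next. In those clusters epithelial markers summed to 163, 109 and 209 CPM, but acinar products still to 57105, 27566 and 47956 CPM, no more even between libraries than over all fibroblast nuclei. Pericyte and smooth muscle markers summed to 271, 349 and 169 CPM, with 8 of 8 detected. The part of this RNA in the results was not tested, and values in the clusters with few epithelial markers stand beside many results for that reason.

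Clustering the fibroblast nuclei alone gave 7 clusters. Cluster 0 held 933 nuclei and was led by Aox3, Bmp1, Col5a3, Adam12, Mrc2 and Adam19, several of them genes of matrix assembly and turnover. Cluster 1 held 409 nuclei and was led by Fmo2, Sema5a, Erc2, Mdga2, Il33 and Adh1. Cluster 2, with 290 nuclei led by Entpd3, Dgkg and Wwc1, and cluster 3, with 220 nuclei led by Nos1, Tmem163 and Cwh43, carried epithelial markers at 935 and 1276 CPM, compared with 203 and 96.8 CPM in clusters 0 and 1. The 13 fibroblast markers outside the rule summed to 1770 and 960 CPM in clusters 2 and 3, compared with 4819 and 5193 CPM in clusters 0 and 1. The rule thus took in nuclei whose RNA goes in part against the label, and they are called fibroblast nuclei here only by the rule. Cluster 4 held 33 nuclei led by the pericyte gene Rgs5 with Trpc6, cluster 5 held 25 nuclei led by Slc35f1 and Kcna1, and cluster 6 held 5. In cluster 6 a set of 6 adventitial fibroblast genes summed to 7719 CPM, compared with 158 and 97.9 CPM in clusters 0 and 1. In cluster 5 a shorter list of 4 Schwann markers summed to 4213 CPM, compared with 679 and 671 CPM in clusters 0 and 1. Clusters 0 and 1 together made up 73.4% of the chosen nuclei with pilocarpine, 72.8% with saline and 63.8% without irradiation. They held 51.0%, 55.3% and 35.5% of the UMIs. Fibroblast genes as a set read lower over all chosen nuclei than within clusters 0 and 1 in each library, most so in the non-irradiated one. A list of 28 fibroblast identity genes outside the rule summed to 6696, 7167 and 5241 CPM over all chosen nuclei. In clusters 0 and 1 it summed to 10116, 10605.5 and 9927 CPM. Saline over non-irradiated ratios of such genes are thus raised over all chosen nuclei. Values in clusters 0 and 1 stand beside list medians and many of the ratios for that reason. Cluster 0 held 378 nuclei with pilocarpine, 188 with saline and 367 without irradiation, and cluster 1 held 159, 217 and 33. Cluster 1 thus made up 21.7%, 39.0% and 5.26% of the chosen nuclei, so a ratio over both clusters compares different mixes. Non-irradiated values within cluster 1 rest on those 33 nuclei.

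Fibroblast nuclei made up 8.74% of kept nuclei in the irradiated + pilocarpine library (exact Clopper-Pearson interval 8.14% to 9.36%) and 6.45% in the irradiated + saline library (5.94% to 6.99%). They made up 5.90% in the non-irradiated library (5.46% to 6.36%). The irradiated + pilocarpine share lay 2.29 percentage points above the irradiated + saline share (Newcombe interval 1.5 to 3.09) and 2.84 points above the non-irradiated share (2.10 to 3.60). The irradiated + saline share lay 0.553 points above the non-irradiated share, with an interval from -0.128 to 1.24 that includes 0. In a further setting, nuclei with fewer than 800 UMIs were left out and the others thinned to 800 UMIs. This left 8069, 8174 and 9797 kept nuclei in the irradiated + pilocarpine, irradiated + saline and non-irradiated libraries. The shares were then 8.41%, 6.83% and 5.18%, and the irradiated + saline share lay 1.65 points above the non-irradiated one (0.954 to 2.36). Clusters 0 and 1 made up 6.41%, 4.70% and 3.76% of kept nuclei, a difference of 0.936 points between irradiated + saline and non-irradiated nuclei (0.366 to 1.52). With no excluded gene allowed, the irradiated + saline share was the lowest, at 3.82%, 2.19% and 3.01%, so the order of the irradiated + saline and non-irradiated shares depended on the rule. The shares are of sorted nuclei and sum with those of all other cells, and fewer other cells would raise them too.

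**Figure D1:**
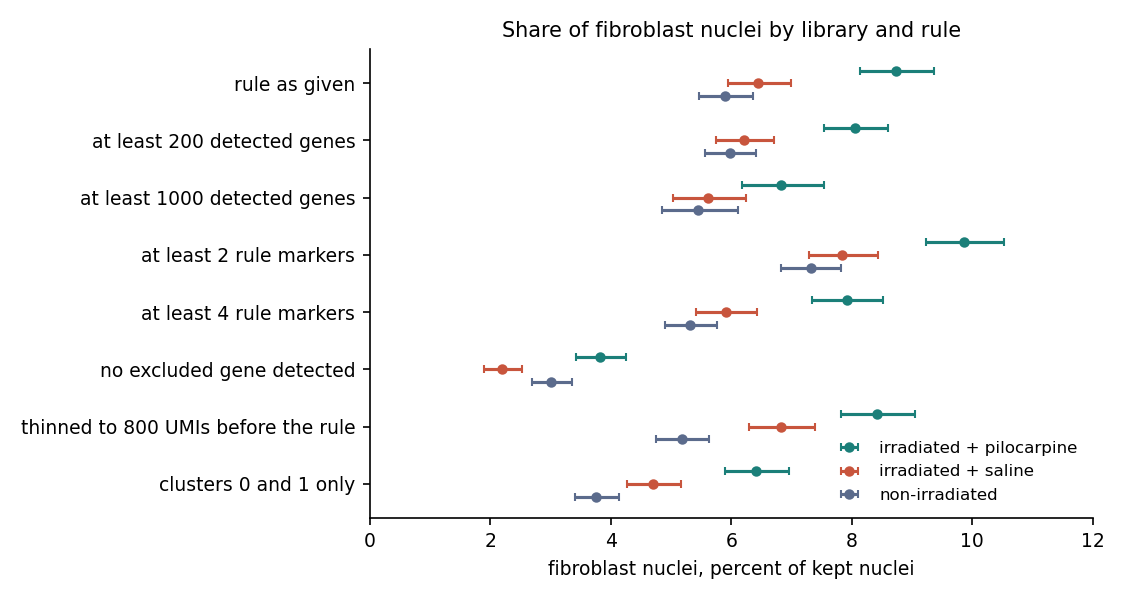
Share of fibroblast nuclei among kept nuclei, in percent (x axis), for the rule as given and for 7 changed rules (y axis), in the irradiated + pilocarpine, irradiated + saline and non-irradiated libraries. Points are shares and bars are exact 95% intervals of counting error; the irradiated + pilocarpine share is the highest under each rule drawn, while the other two change order when no excluded gene is allowed.

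Levels were compared as the ratio of CPM in UMIs summed over fibroblast nuclei, with an exact conditional binomial interval. A gene counted as past the fold at a ratio of 1.5 or more either way, among genes with at least 30 UMIs in the pair of libraries. Irradiated + saline over non-irradiated, 1251 of 9804 genes were past the fold higher, or 12.8%, and 1169 were past it lower, or 11.9%. Irradiated + pilocarpine over irradiated + saline, 695 of 10213 genes were higher, or 6.81%, and 676 were lower, or 6.62%. Irradiated + pilocarpine over non-irradiated, 11.6% of 10194 genes were higher and 9.74% were lower. The median log2 ratio over all genes with at least 10 UMIs was 0.02 in the comparison of saline with non-irradiated nuclei and -0.00 in the comparison of pilocarpine with saline, with 51.8% and 49.8% of genes higher. In clusters 0 and 1, 49.4% and 50.2% of genes were higher. The fibroblast identity list given above had a median of 0.45 for saline over non-irradiated nuclei, with 22 of 26 genes higher. Of its 24 genes with at least 30 UMIs, 9 were past the fold higher and 1 lower. Its median in clusters 0 and 1 was 0.09. Shifts of other lists of fibroblast genes over all chosen nuclei are to be read beside this one. The comparisons share libraries, so a gene that stands apart in the irradiated + saline library alone appears in 2 of them.

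**Figure D2:**
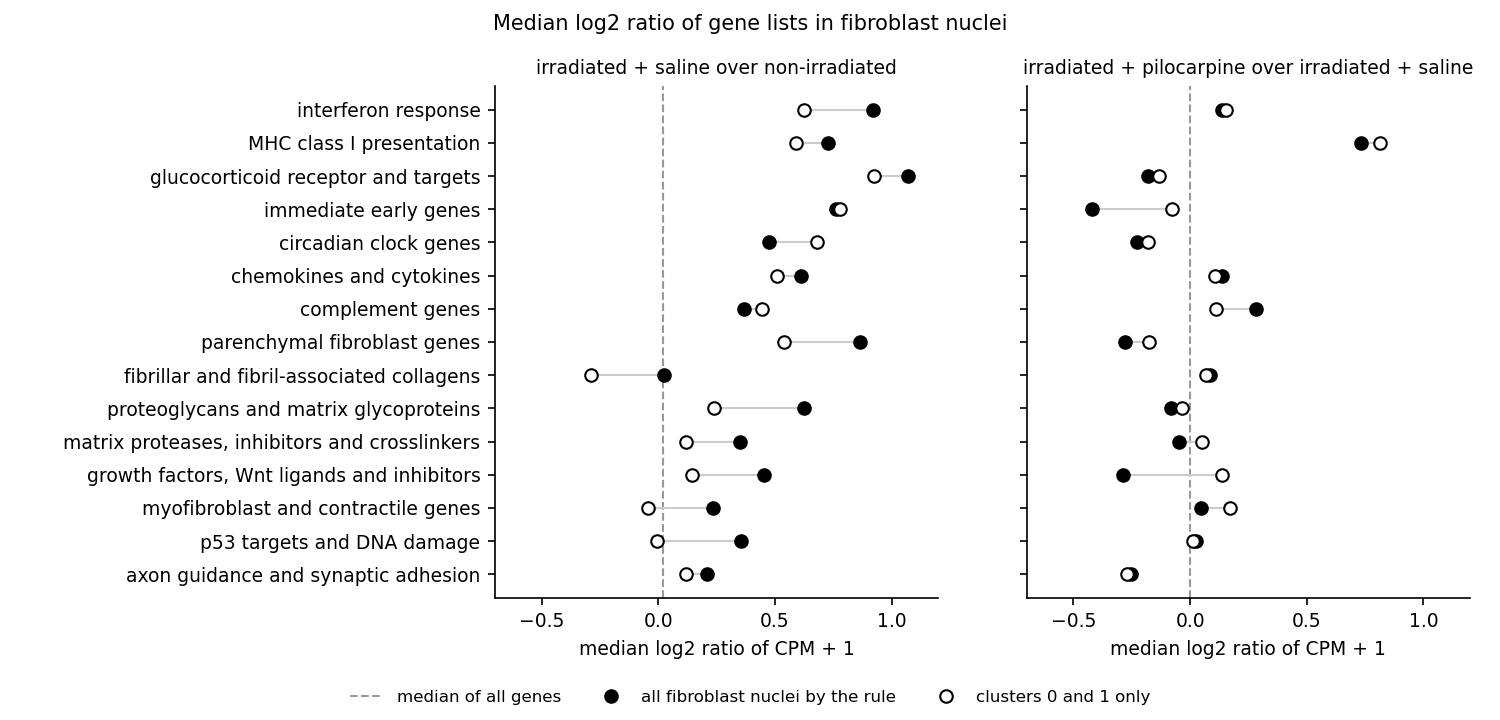
Median log2 ratio of CPM + 1 (x axis) over the measured genes of 15 lists (y axis), for irradiated + saline over non-irradiated (left) and irradiated + pilocarpine over irradiated + saline (right). Filled points use all fibroblast nuclei by the rule, open points use clusters 0 and 1, and the dashed line is the median of all genes; interferon, glucocorticoid and immediate early lists lie right of it on the left, and MHC class I presentation on the right.

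Interferon response genes were higher in irradiated + saline than in non-irradiated fibroblast nuclei almost throughout. Of 62 list genes with at least 10 UMIs, 61 were higher, with a median log2 ratio of 0.92. Of the 48 with at least 30 UMIs, 33 were past the fold higher and 0 lower, where 12.8% and 11.9% of all genes were. In clusters 0 and 1 the median was 0.63, with 44 of 55 genes higher. The list was also higher in the other nuclei, in which 30 of the same 48 genes were past the fold higher, where 8.33% of all genes were, and nothing here is called particular to fibroblasts. Immune markers, of which 10, 11 and 11 of 14 were detected in fibroblast nuclei with the B cell gene Cd79a at 0, summed to 169, 134 and 82.7 CPM in the irradiated + pilocarpine, irradiated + saline and non-irradiated libraries, and their part in the result was not tested.

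Oas2, an oligoadenylate synthetase that responds to double-stranded RNA, stood at 51.5, 78.1 and 15.5 CPM in irradiated + pilocarpine, irradiated + saline and non-irradiated fibroblast nuclei. The irradiated + saline level was 5.02 times the non-irradiated one (3.15 to 8.36), and 3.53 times in clusters 0 and 1. Ifi207, a DNA-binding PYHIN protein with close paralogs among which reads may be split, had 316, 369 and 131 CPM in the same order, a ratio of 2.82 (2.38 to 3.36). Both genes thus stood above the non-irradiated level in each irradiated library, and neither was higher with pilocarpine than with saline. Ifit3, an antiviral effector, had 36, 34 and 7 UMIs. Cxcl10, a chemokine that draws T cells, had 37, 26 and 0 UMIs. A count of 0 allows up to 2.12 CPM, taken as 3 UMIs of the library. The irradiated + saline level of 19.5 CPM was 9.21 times that limit, without allowing for counting error in its own 26 UMIs. The members nearest to no difference in the list were Ifi27, at 177, 177 and 157 CPM, Irf9, at 86.0, 76.6 and 73.5 CPM, and Irf1, at 76.3, 53.3 and 52.3 CPM.

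With pilocarpine, a subset of interferon genes stood higher again, among them interferon-inducible GTPases. Genes were ranked by the bound of their ratio nearest to 1, among genes at least 2 times as high in fibroblast nuclei as in all other nuclei. That minimum was asked only in the library where the gene was higher, so the make-up of the ranking is descriptive. Of the 10 genes most above with pilocarpine, Gbp4, Iigp1, Igtp, Irgm2, Gbp6 and Gbp2 were on the interferon list, and Gbp8 belongs to the same GTPase family. The whole list moved less, with a median of 0.14 over 63 genes, 40 of them higher. Of 58 genes with at least 30 UMIs, 17 were past the fold higher and 3 lower, where 6.81% and 6.62% of all genes were. The median in clusters 0 and 1 was 0.16. Set against non-irradiated nuclei, 44 of 54 genes were past the fold higher and 0 lower, where 11.6% and 9.74% of all genes were.

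Promoters of 4 GTPase genes of these families, Igtp, Irgm2, Gbp2 and Gbp7, were chosen after their values were seen. They are shown because all 4 genes stood higher with pilocarpine than with saline and their windows hold the letters of a known interferon-response motif. Each window runs from 250 bases before to 50 bases after the start of the gene, taken from RefSeq for GRCm38.p6 and printed 5′ to 3′ on the strand of the gene. Capitals mark GAAANNGAAA, the core of the interferon-stimulated response element, searched on both strands.
Igtp, chr11:58199306-58199605, plus strand: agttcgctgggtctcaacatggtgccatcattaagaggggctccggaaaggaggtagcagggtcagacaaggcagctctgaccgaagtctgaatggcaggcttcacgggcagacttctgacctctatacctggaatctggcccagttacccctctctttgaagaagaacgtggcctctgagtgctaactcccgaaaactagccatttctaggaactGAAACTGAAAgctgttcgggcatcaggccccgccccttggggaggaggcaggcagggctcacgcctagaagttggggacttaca
Irgm2, chr11:58214727-58215026, plus strand: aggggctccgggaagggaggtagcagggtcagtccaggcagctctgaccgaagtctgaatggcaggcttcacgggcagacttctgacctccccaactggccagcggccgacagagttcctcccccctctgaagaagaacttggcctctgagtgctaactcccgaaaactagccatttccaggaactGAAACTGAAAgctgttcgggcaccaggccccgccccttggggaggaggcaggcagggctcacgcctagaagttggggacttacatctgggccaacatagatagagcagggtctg
Gbp2, chr3:142620413-142620712, plus strand: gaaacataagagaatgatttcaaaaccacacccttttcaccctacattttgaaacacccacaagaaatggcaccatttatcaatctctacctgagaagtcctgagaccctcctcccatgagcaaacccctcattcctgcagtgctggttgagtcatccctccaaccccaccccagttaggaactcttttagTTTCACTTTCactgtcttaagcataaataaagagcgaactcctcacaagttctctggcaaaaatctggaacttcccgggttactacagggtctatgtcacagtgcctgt
Gbp7, chr3:142530086-142530385, plus strand: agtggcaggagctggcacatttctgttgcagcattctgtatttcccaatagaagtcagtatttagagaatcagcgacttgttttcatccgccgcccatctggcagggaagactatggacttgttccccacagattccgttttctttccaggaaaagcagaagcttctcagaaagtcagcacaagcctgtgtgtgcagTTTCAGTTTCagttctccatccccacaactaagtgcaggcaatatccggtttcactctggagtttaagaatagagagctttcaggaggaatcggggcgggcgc

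In Igtp and Irgm2, neighbours on chromosome 11, the match begins 34 and 64 bases before the start. It has the same letters in both windows, and the windows share a run of 61 identical bases at the same shift of 30 bases. In Gbp2 and Gbp7, which lie close together on chromosome 3, the match reads on the opposite strand, 59 and 53 bases before the start. GAAANNGAAA occurred in 3.44% of all 32851 promoter windows of the same length. By gene, GAAANNGAAA was in a window of 33 of the 55 interferon list genes that the table matched, of 74 listed, and of 1079 of all 27025 genes. It was in a window of 5 of the 17 matched genes of MHC class I presentation, of 20 listed. A match describes the letters of a window and does not show binding.

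Iigp1, an immunity-related GTPase that attacks the vacuoles of intracellular parasites, stood at 344 CPM in irradiated + pilocarpine fibroblast nuclei (316 to 374), from 568 UMIs. It stood at 109 CPM in irradiated + saline nuclei (91.8 to 128), from 145 UMIs, and at 31.8 CPM in non-irradiated nuclei (23.2 to 42.5), from 45 UMIs. The 3 libraries were thus well apart, in the order pilocarpine, saline, non-irradiated. The ratio was 3.16 for pilocarpine over saline (2.63 to 3.82), and 3.42 for saline over non-irradiated (2.43 to 4.90). In clusters 0 and 1 the same ratios were 3.39 and 3.38. In all other nuclei Iigp1 stood at 32.1, 11.1 and 4.60 CPM, lower than in fibroblast nuclei but in the same order.

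Igtp and Irgm2, GTPases that control the attacking members of the family, stood at 29.7, 5.25 and 4.24 CPM and at 107, 36.0 and 13.4 CPM in irradiated + pilocarpine, irradiated + saline and non-irradiated nuclei. Igtp was 5.65 times as high with pilocarpine as with saline (2.55 to 14.8), on 49 and 7 UMIs. Between saline and non-irradiated nuclei, with 7 and 6 UMIs, no difference in Igtp was detectable at this depth. Irgm2 was 2.96 times as high with pilocarpine as with saline (2.14 to 4.16), and 2.68 times as high with saline as in non-irradiated nuclei (1.55 to 4.83). Tgtp2, a further GTPase of the family that was chosen after its values were seen, had 35, 4 and 1 UMIs.

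The guanylate-binding proteins, which coat and break open pathogen vacuoles, followed. Gbp4 stood at 125, 31.5 and 10.6 CPM, 3.96 times as high with pilocarpine as with saline (2.83 to 5.66) and 5.08 times in clusters 0 and 1. Gbp8 stood at 89.6, 25.5 and 14.1 CPM, a ratio of 3.51 (2.41 to 5.26). Gbp6 stood at 69.1, 27.0 and 14.8 CPM and Gbp2 at 32.7, 11.3 and 4.95 CPM, with pilocarpine over saline ratios of 2.56 (1.74 to 3.83) and 2.91 (1.62 to 5.54). The genes of this family resemble each other closely, Gbp4, Gbp6 and Gbp8 lying together on chromosome 5, and the authors' counting may have split their reads.

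Cd274, which encodes the T cell inhibitor PD-L1, had 45, 10 and 4 UMIs, and was 3.63 times as high with pilocarpine as with saline (1.8 to 8.08). Gbp7, chosen after its values were seen, stood at 101, 52.5 and 17.7 CPM, a ratio of 1.91 (1.44 to 2.57). Tnfaip2, a gene induced by inflammatory cytokines, stood at 58.1, 25.5 and 9.89 CPM, a ratio of 2.28 (1.53 to 3.48). In contrast Oas2 and Rsad2, both antiviral genes, were lower with pilocarpine than with saline, at 0.660 times (0.489 to 0.887) and 0.546 times (0.364 to 0.813). Rsad2 had 26.7, 48.8 and 14.8 CPM in irradiated + pilocarpine, irradiated + saline and non-irradiated nuclei. With no excluded gene allowed, Rsad2 was higher with pilocarpine instead, at a log2 ratio of 0.29. In the other nuclei 12 of the 58 measured list genes were past the fold higher and 7 lower with pilocarpine, where 2.21% and 3.57% of all genes were.

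**Figure D3:**
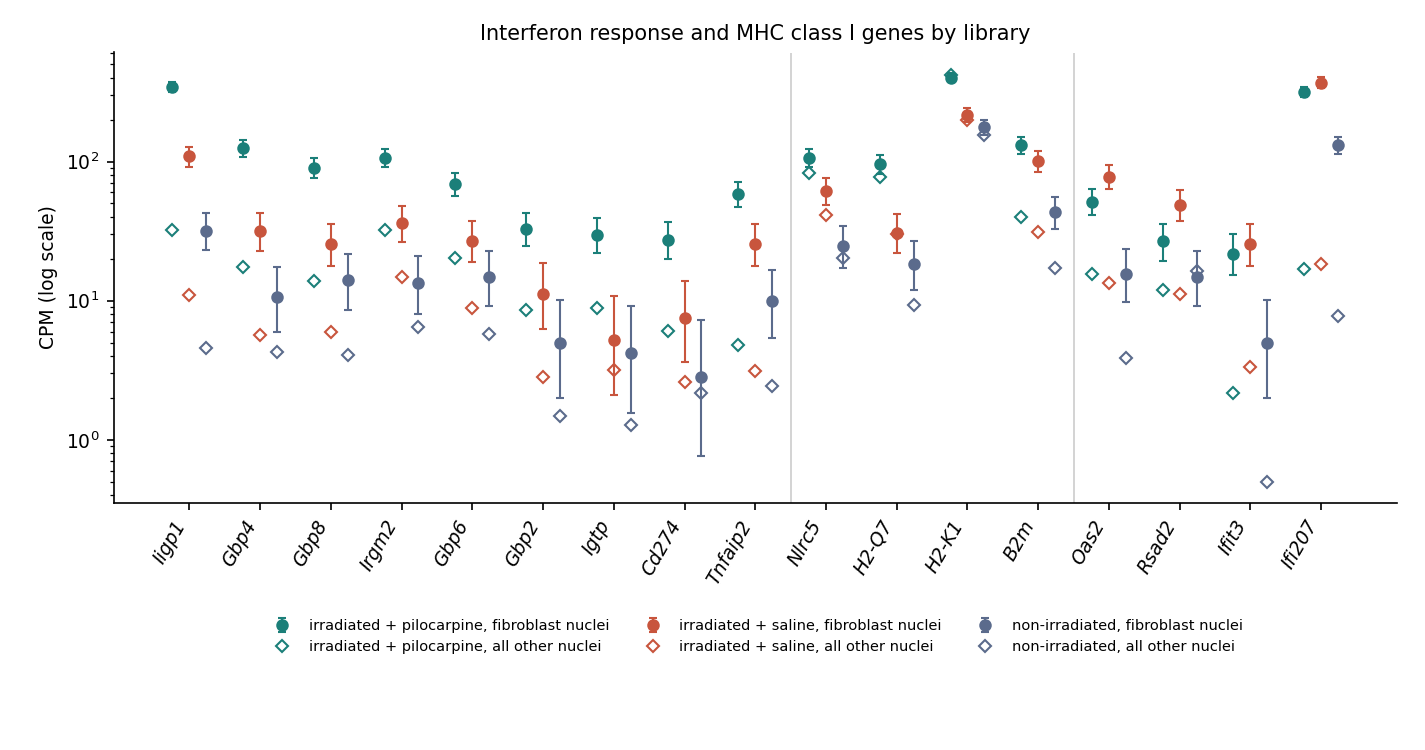
Level in CPM on a log axis (y) of 17 interferon response and MHC class I genes (x) in the irradiated + pilocarpine, irradiated + saline and non-irradiated libraries. Filled points are fibroblast nuclei with exact 95% Poisson intervals of counting error and open diamonds are all other nuclei; the GTPases and MHC genes at left and centre stand highest with pilocarpine, while Oas2 and Rsad2 at right stand highest with saline.

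Genes of MHC class I presentation were higher in each step of the same order. Irradiated + saline over non-irradiated, 18 of 20 genes were higher with a median log2 ratio of 0.73, and 10 of 16 were past the fold higher and 1 lower, where 12.8% and 11.9% of all genes were. Irradiated + pilocarpine over irradiated + saline, 19 of 20 were higher with a median of 0.73, and 11 of 18 were past the fold higher and 0 lower, where 6.81% and 6.62% of all genes were. The medians in clusters 0 and 1 were 0.59 and 0.81. H2-K1, a classical heavy chain, stood at 402, 217 and 176 CPM in irradiated + pilocarpine, irradiated + saline and non-irradiated nuclei. Its pilocarpine over saline ratio was 1.85 (1.61 to 2.13). H2-Q6 and H2-Q7, near-identical genes whose reads may be split, stood at 72.7, 15.8 and 7.77 CPM and at 95.7, 30.8 and 18.4 CPM. B2m, the light chain of all class I molecules, stood at 131, 101 and 43.1 CPM, and Nlrc5, which switches class I genes on, at 107, 61.5 and 24.7 CPM. Nlrc5 was thus 2.49 times as high with saline as in non-irradiated nuclei (1.66 to 3.81) and 1.73 times as high with pilocarpine as with saline (1.33 to 2.28). Set against non-irradiated nuclei, 15 of 18 list genes were past the fold higher with pilocarpine and 0 lower, where 11.6% and 9.74% of all genes were. The other nuclei differed likewise, with 8 of 16 and 9 of 18 genes past the fold higher in the 2 steps. Of all genes, 8.33% and 2.21% were past it higher there. H2-K1 stood at 416, 198 and 155 CPM in the other nuclei.

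Glucocorticoid-regulated genes formed the list with the highest median between irradiated + saline and non-irradiated fibroblast nuclei among the 15 plotted lists. Of 24 genes 23 were higher, with a median log2 ratio of 1.07, and 14 of 20 were past the fold higher and 0 lower, where 12.8% and 11.9% of all genes were. These 2 shares are the all-gene background for each later count of saline over non-irradiated, and 6.81% and 6.62% for each of pilocarpine over saline. For lists of fibroblast genes the identity list given above is a further background. In clusters 0 and 1 the median of the glucocorticoid list was 0.93, with 22 of 22 higher. With pilocarpine the list lay lower than with saline, at a median of -0.18, with 5 of 23 genes past the fold lower and 1 higher, but at 0.048 with no excluded gene allowed.

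Fkbp5, a co-chaperone that glucocorticoids induce and that damps their receptor, stood at 491, 760 and 280 CPM in irradiated + pilocarpine, irradiated + saline and non-irradiated nuclei. The irradiated + saline level was 2.71 times the non-irradiated one (2.41 to 3.05), and the irradiated + pilocarpine level 0.646 times the irradiated + saline one (0.588 to 0.709). Zbtb16, a transcription factor, and Errfi1, an inhibitor of EGF receptors, were 2.74 times (2.31 to 3.26) and 2.72 times (2.30 to 3.23) as high with saline as without irradiation. Hsd11b1, the enzyme that regenerates active glucocorticoid inside cells, stood at 281, 409 and 153 CPM. It is among the genes that lead cluster 1, which held more of the irradiated + saline nuclei. Its mean was 592 CPM in cluster 1 and 254 CPM in the other chosen nuclei. Sgk1, a kinase, had 40, 74 and 26 UMIs. The phosphatase Dusp1 had 16, 46 and 11 UMIs, and was 4.44 times as high with saline as without irradiation (2.27 to 9.51) and 0.281 times as high with pilocarpine as with saline (0.148 to 0.505). Nr3c1, the receptor itself, stood at 314, 375 and 227 CPM.

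In all other nuclei Fkbp5 stood at 79.2, 203 and 83.8 CPM, and 12 of the 20 measured list genes were past the fold higher with saline than without irradiation, where 8.33% of all genes were. Immediate early genes, which respond within minutes to stimulation and also to handling, went the same way in fibroblast nuclei. Of 26, 23 were higher with saline than without irradiation, with a median of 0.76. Egr1 among them had 64, 92 and 23 UMIs. With pilocarpine 10 of 19 immediate early genes were past the fold lower and 0 higher than with saline, at a median of -0.42 over all fibroblast nuclei but -0.08 in clusters 0 and 1.

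Clock genes differed between libraries in both directions. With saline, 9 of 21 were past the fold higher and 4 lower than without irradiation, and with pilocarpine 1 of 18 was past it higher and 1 lower than with saline. Arntl, which encodes the clock activator BMAL1, had 17 UMIs in irradiated + pilocarpine nuclei, 4 in irradiated + saline nuclei and 58 in non-irradiated nuclei, and was 0.0733 times as high with saline as without irradiation (0.0193 to 0.198). Its partner Npas2 had 52, 17 and 80 UMIs. Nfil3, a repressor that cycles with them, had 23, 5 and 39 UMIs. Per2, which peaks at the opposite time of day, had 93, 105 and 24 UMIs, a saline over non-irradiated ratio of 4.65 (2.96 to 7.58), and Ciart had 27, 27 and 4 UMIs. All other nuclei held the same pattern, with Arntl at 6.94, 5.14 and 35.2 CPM and Per2 at 75.4, 95.4 and 19.0 CPM. Clock genes and many glucocorticoid targets follow the hour of the day, and whether glands were taken at the same hour cannot be told from the labels, so the part of the hour was not tested.

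**Figure D4:**
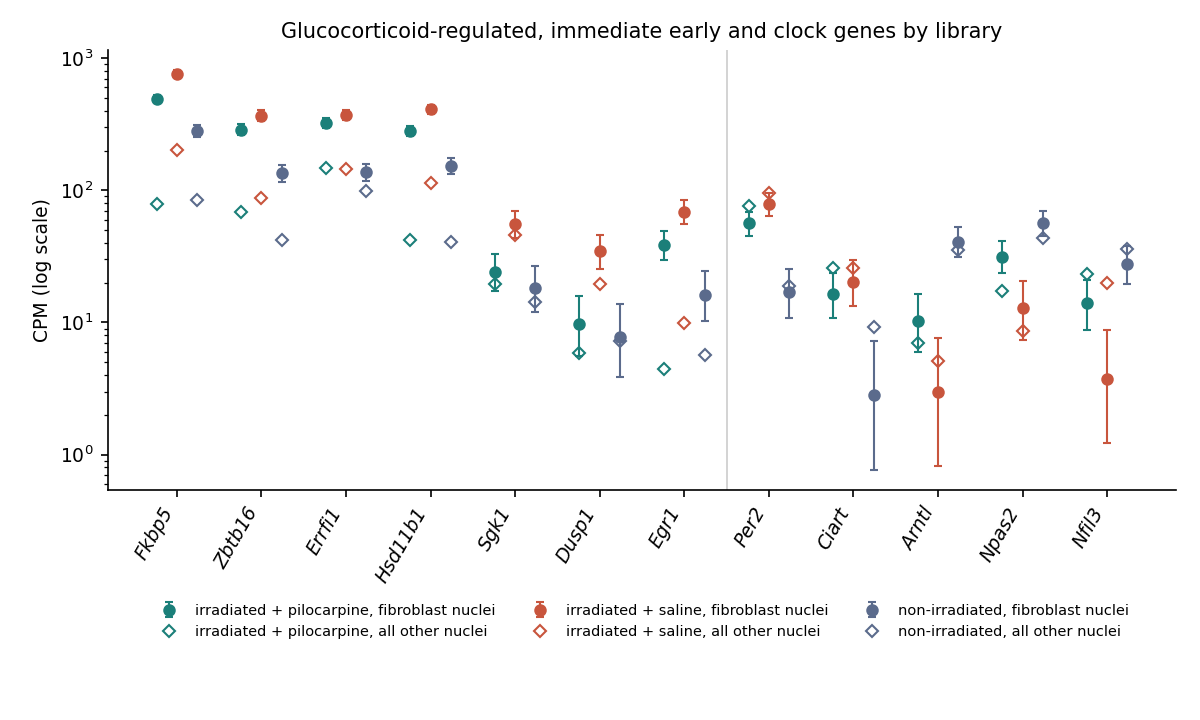
Level in CPM on a log axis (y) of 7 glucocorticoid-regulated or immediate early genes and 5 clock genes (x) in the irradiated + pilocarpine, irradiated + saline and non-irradiated libraries. Filled points are fibroblast nuclei with exact 95% Poisson intervals of counting error and open diamonds are all other nuclei; Fkbp5 is highest with saline, and Arntl, Npas2 and Nfil3 are lowest with saline and highest without irradiation.

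Fmo2, Gsta3, Adh1 and Aldh1a1 were among the 10 genes most above with saline over non-irradiated, by the same ranking. No list was fixed for them, and Fmo2, Adh1 and Aldh1a1 are among the genes that lead cluster 1, which held more of the irradiated + saline nuclei. Fmo2, a flavin monooxygenase, stood at 263, 398 and 78.4 CPM in irradiated + pilocarpine, irradiated + saline and non-irradiated nuclei, from 435, 530 and 111 UMIs. The saline level was 5.07 times the non-irradiated one (4.13 to 6.28), and 4.82 times in clusters 0 and 1. Gsta3, a glutathione transferase, stood at 33.9, 84.8 and 12.7 CPM and was 6.67 times as high with saline as without irradiation (4.03 to 11.7). Adh1, which oxidises retinol, stood at 149, 190 and 43.1 CPM, and Aldh1a1, which makes retinoic acid, at 700, 869 and 238 CPM. Their ratios were 4.41 (3.32 to 5.93) and 3.65 (3.23 to 4.13), and 3.57 and 2.93 in clusters 0 and 1. All these genes stood between the other libraries with pilocarpine.

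Fmo2 and Adh1 lead cluster 1, so their levels were also read within each cluster. In cluster 0 Fmo2 stood at 269, 337 and 115 CPM and Aldh1a1 at 916, 892 and 397 CPM in irradiated + pilocarpine, irradiated + saline and non-irradiated nuclei. In cluster 1 they stood at 570.5, 717 and 195 CPM and at 1127, 1498 and 797 CPM. Both genes were thus higher in the irradiated libraries inside either cluster, though cluster 1 held only 33 non-irradiated nuclei. The clusters were drawn on these genes too, so the cluster sizes by library given above are no separate evidence on these genes.

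**Figure D5:**
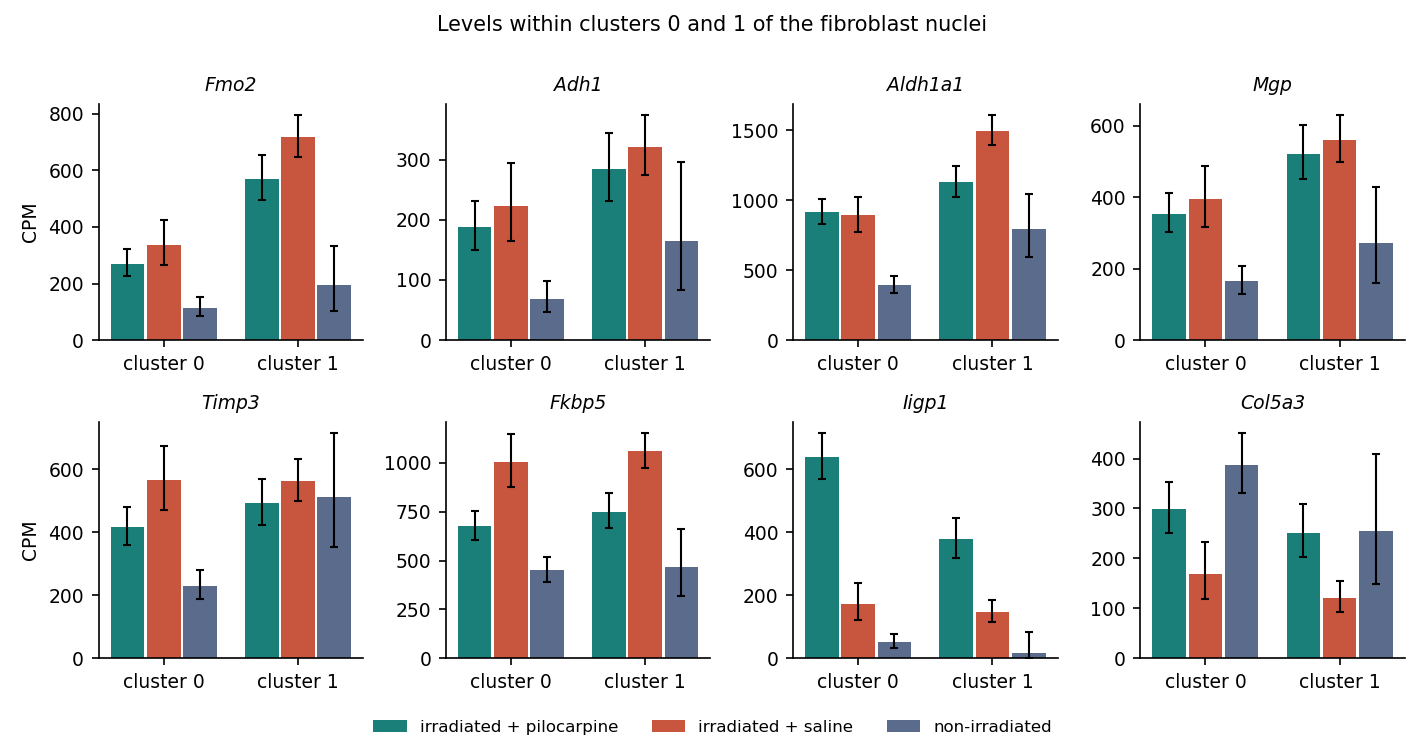
Level in CPM (y axis, starting at 0, with a scale of its own per gene) of 8 genes within cluster 0 and cluster 1 of the fibroblast nuclei (x axis), in the irradiated + pilocarpine, irradiated + saline and non-irradiated libraries. Bars are CPM of summed UMIs and error bars exact 95% Poisson intervals of counting error; Fmo2, Adh1, Aldh1a1, Mgp and Fkbp5 are lowest in the non-irradiated library in either cluster, and Col5a3 is lowest with saline. Cluster 1 holds 33 non-irradiated nuclei.

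Matrix genes differed by family, and fibrillar collagens had no common direction. Col1a2 stood at 368, 331 and 355 CPM and Col3a1 at 422, 371 and 390 CPM in irradiated + pilocarpine, irradiated + saline and non-irradiated nuclei. Their saline over non-irradiated ratios were 0.933 (0.819 to 1.06) and 0.951 (0.840 to 1.08), intervals that include 1, and 0.735 and 0.819 in clusters 0 and 1. Col1a1 had 76, 82 and 62 UMIs, or 46.0, 61.5 and 43.8 CPM, a saline over non-irradiated ratio of 1.41 (0.998 to 1.99), and 1.18 in clusters 0 and 1. Over the 14 measured genes of fibrillar and fibril-associated collagens the median log2 ratio was 0.03, and -0.29 in clusters 0 and 1, with 1 of 12 past the fold higher and 3 lower. Without the nuclei above the median in acinar RNA the list's median was 0.34, so the sign of this small shift depended on the nuclei taken. Col5a3, a minor chain of type V collagen, was the gene most below, at 190, 103 and 201 CPM and 0.511 times as high with saline as without irradiation (0.413 to 0.628). With pilocarpine it was 1.84 times as high as with saline (1.5 to 2.27). Col14a1, which binds collagen fibrils, stood at 132, 102 and 158 CPM, and Col11a1 had 14, 9 and 39 UMIs, with 3.69, 2.05 and 31.6 CPM in all other nuclei. Col24a1 had 24, 38 and 13 UMIs, Col12a1 had 24, 19 and 4, and Col5a2 stood at 508, 626 and 449 CPM, a ratio of 1.4 (1.26 to 1.55), and 1.05 in clusters 0 and 1.

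Proteoglycans and matrix glycoproteins lay higher with saline than without irradiation, by an amount that was smaller in clusters 0 and 1. Of 62 genes 51 were higher, with a median of 0.62, and 27 of 50 were past the fold higher and 2 lower. In clusters 0 and 1 the median was 0.24, with 37 of 58 higher, and it turned to -0.12 once RNA of other nuclei, scaled on acinar products, was subtracted. The subtraction removed 67.1%, 53.3% and 73.7% of the UMIs of irradiated + pilocarpine, irradiated + saline and non-irradiated fibroblast nuclei, unequal parts of the libraries. Mgp, an inhibitor of calcification, stood at 254, 332 and 95.4 CPM, a ratio of 3.49 (2.87 to 4.26), and 2.86 in clusters 0 and 1. Spon1, a secreted adhesion protein, stood at 526, 594 and 234 CPM, a ratio of 2.54 (2.23 to 2.90). Dcn, given above, was 1.76 times as high with saline as without irradiation (1.60 to 1.93), and 1.46 times in clusters 0 and 1. The latent TGF-beta binding proteins Ltbp3 and Ltbp4 were among the lowest, at 0.549 times (0.411 to 0.728) and 0.777 times (0.595 to 1.01), and Thbs3 had 22, 7 and 22 UMIs. Between pilocarpine and saline the list had a median of -0.08, with 3 of 53 genes past the fold higher and 2 lower, among them Lum, a collagen-binding proteoglycan, at 0.640 times (0.492 to 0.831).

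Among proteases and their inhibitors, Timp3, a matrix-bound inhibitor of metalloproteinases, stood at 325, 456 and 133 CPM in irradiated + pilocarpine, irradiated + saline and non-irradiated nuclei. Its saline over non-irradiated ratio was 3.44 (2.91 to 4.07), and 2.11 in clusters 0 and 1. In cluster 0 it stood at 417, 564 and 229 CPM, and in cluster 1 at 491, 563 and 511 CPM, where the libraries overlapped. The metalloproteinase Mmp19 had 69, 79 and 28 UMIs. Over the list, 12 of 39 genes were past the fold higher and 2 lower, with a median of 0.35, and 0.12 in clusters 0 and 1. The same subtraction turned that median to -0.29.

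Myofibroblast and contractile genes showed no common shift. Their median was 0.23 between saline and non-irradiated nuclei, and -0.04 in clusters 0 and 1, with 2 of 15 past the fold higher and 1 lower. Acta2, the actin of myofibroblasts, had 11, 10 and 13 UMIs, and was higher in all other nuclei, at 76.5, 46.6 and 42.6 CPM. Fap, a surface protease of activated fibroblasts, stood at 597, 542 and 425 CPM, a ratio of 1.28 (1.14 to 1.42) with saline over non-irradiated nuclei that was 0.943 in clusters 0 and 1. Ccn2, a matricellular target of TGF-beta, had 37, 28 and 8 UMIs, 3.72 times as high with saline as without irradiation (1.65 to 9.44).

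Signals that fibroblasts send were in part higher with saline than without irradiation. Of 20 chemokines and cytokines with at least 30 UMIs, 11 were past the fold higher and 0 lower, with a median of 0.61, and 0.51 in clusters 0 and 1. Il33, an alarm cytokine stored in nuclei, stood at 194, 272 and 91.8 CPM in irradiated + pilocarpine, irradiated + saline and non-irradiated nuclei, 2.96 times as high with saline as without irradiation (2.41 to 3.64). Il33 leads cluster 1, and stood at 225, 300.3 and 158 CPM in cluster 0 and at 379, 472 and 135 CPM in cluster 1, the last on 9 UMIs. Ccl11, which attracts eosinophils, had 55, 93 and 38 UMIs, and was 0.477 times as high with pilocarpine as with saline (0.336 to 0.673). Cxcl12, which retains immune and progenitor cells, had 126, 126 and 64 UMIs. Of the complement genes, 5 of 10 were past the fold higher and 1 lower with saline, among them C3, the central component, at 60.6, 74.3 and 25.4 CPM, and C2, at 55.1, 48.8 and 14.1 CPM. The complement median of 0.37 became -0.24 after subtraction on acinar products.

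Fgf10, the growth factor on which salivary buds and progenitors depend, stood at 1138, 1199 and 759 CPM, a saline over non-irradiated ratio of 1.58 (1.46 to 1.71), and 1.19 in clusters 0 and 1. After subtraction on acinar products the log2 ratio of Fgf10 was -0.14, and so was the median of its list. Hgf, the ligand of the Met receptor, had 71, 45 and 20 UMIs, a ratio of 2.39 (1.38 to 4.27), and 2.65 in clusters 0 and 1. Bmp4 stood at 124, 112 and 50.2 CPM, a ratio of 2.23 (1.67 to 3.0). Igf1 had 100, 67 and 67 UMIs, a ratio of 1.06 (0.746 to 1.51). Of 25 growth factors, Wnt ligands and inhibitors 6 were past the fold higher and 1 lower with saline, and with pilocarpine over saline 0 of 26 were past it higher and 7 lower. The pilocarpine median of this list was -0.29 over all fibroblast nuclei and 0.14 in clusters 0 and 1.

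Genes of the parenchymal fibroblast state lay higher with saline than without irradiation, 15 of 16 of them, with a median of 0.87, and 0.54 in clusters 0 and 1. Mgp and Hsd11b1, already given, are on that list and are among the genes that lead cluster 1. Gdf10 is on the list too, with 5, 20 and 3 UMIs. The list's marker Col15a1, a collagen of the basement membrane zone, stood at 405, 506 and 490 CPM, a ratio of 1.03 (0.928 to 1.15). Of the markers of adventitial fibroblasts, Pi16 had 11, 23 and 18 UMIs, and Dpp4 stood lower in fibroblast nuclei, at 136, 121 and 235 CPM, than in all other nuclei, at 319, 280 and 416 CPM. The adventitial list had 11 of 16 genes higher with saline than without irradiation, with a median of 0.24, and -0.06 in clusters 0 and 1, and 3 of 12 past the fold higher and 2 lower. The 5 nuclei of cluster 6, the cluster highest in adventitial genes, are not in clusters 0 and 1. Of perineurial and endoneurial genes 8 of 11 were lower, with a median of -0.19, and with pilocarpine over saline 9 of 13 were higher, with a median of 0.62. This list was higher outside the fibroblast nuclei, at 2742, 1979 and 2133 CPM in all other nuclei, against 1236, 823 and 1297 CPM. In clusters 0 and 1 it summed to 384, 255 and 462 CPM, and only 3 and 5 genes were measured in the 2 comparisons.

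Further genes most above with saline were Lrfn2, Serpini1 and Grm7. Lrfn2, an adhesion molecule of synapses, had 58, 74 and 15 UMIs in irradiated + pilocarpine, irradiated + saline and non-irradiated nuclei. Serpini1, a serine protease inhibitor, had 34, 68 and 8 UMIs. Grm7, a glutamate receptor, had 82, 106 and 10 UMIs and a ratio of 11.3 (5.89 to 24.2), but 0.682 in clusters 0 and 1, as it is a leading gene of cluster 4. Genes most below with saline, beside Col5a3 and Col14a1, included Cacna1g, a calcium channel gene, with 45, 29 and 60 UMIs, and Dchs2, a large cadherin, at 137, 109 and 153 CPM. Peg3 and Zim1, neighbouring imprinted genes of chromosome 7, had 49, 43 and 72 UMIs and 31, 21 and 41 UMIs. Their saline over non-irradiated ratios were 0.634 (0.424 to 0.938) and 0.544 (0.305 to 0.942), and 0.420 and 0.381 in clusters 0 and 1. Col4a3, Sh3pxd2a and Has2os followed at 0.587, 0.750 and 0.583 times, the last an antisense transcript of Has2 whose reads can be told from those of Has2 only if strand was used in counting. Nkain2, at 0.656 times, was mostly RNA outside clusters 0 and 1, where it stood at 20.2, 14.9 and 17.9 CPM, and it was higher with saline at a log2 ratio of 0.24 when 4 rule markers were asked for.

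The genes most below with pilocarpine that are named here stood highest in the saline library, and some encode adhesion and scaffold proteins best known from synapses. Mdga2, which blocks neuroligin binding, stood at 248, 537 and 172 CPM in irradiated + pilocarpine, irradiated + saline and non-irradiated nuclei, 0.463 times as high with pilocarpine as with saline (0.409 to 0.523). It leads cluster 1, and stood at 319.95, 487 and 301 CPM in cluster 0 and at 439, 881 and 737 CPM in cluster 1. Erc2, a scaffold of the presynaptic zone, stood at 219, 427 and 194 CPM, a ratio of 0.513 (0.449 to 0.587). It leads cluster 1 too, and stood at 229, 423 and 326 CPM in cluster 0 and at 478, 717 and 586 CPM in cluster 1, so both genes were lowest with pilocarpine inside cluster 1. The potassium channel gene Kcnn3 had 17, 46 and 15 UMIs. Mthfd1l, a mitochondrial folate enzyme, Rtl4 and Srpx were at 0.437, 0.404 and 0.50 times with pilocarpine, and Gsta3 and Serpini1 at 0.400 and 0.404 times.

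On the list of axon guidance and synaptic adhesion genes, 7 of 29 were past the fold lower and 2 higher with pilocarpine than with saline, with a median of -0.25, and -0.26 in clusters 0 and 1. With saline over non-irradiated nuclei 10 of 31 were past the fold higher and 3 lower. Lsamp, a gene of the rule, is left out of these counts but kept in the plot of list medians. Negr1 stood at 228, 343 and 142 CPM. Slit2, a guidance ligand, stood at 423, 1269 and 1031 CPM in fibroblast nuclei, but at 814, 2695 and 1142 CPM in all other nuclei and at 222, 300 and 428 CPM in clusters 0 and 1. Rora, a nuclear receptor on the clock list, stood at 3242, 4725 and 2377 CPM, a pilocarpine over saline ratio of 0.686 (0.662 to 0.712). Csmd1, the remaining gene among the 10 most above with pilocarpine and an inhibitor of complement, stood at 462, 260 and 256 CPM, a ratio of 1.77 (1.56 to 2.02).

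Muscarinic receptors, the targets of pilocarpine, were lower in fibroblast nuclei than elsewhere or too sparse to compare. Chrm3, the receptor that drives secretion, stood at 1339, 966 and 1946 CPM in irradiated + pilocarpine, irradiated + saline and non-irradiated fibroblast nuclei, against 3135, 2849 and 3439 CPM in all other nuclei. Within clusters 0 and 1 it stood at 282, 187 and 595 CPM. Chrm2 had 4, 1 and 4 UMIs. Genes of p53 and DNA damage, often looked at after irradiation, had a median of 0.35 between saline and non-irradiated nuclei, with 8 of 28 past the fold higher and 0 lower, but -0.01 in clusters 0 and 1. With pilocarpine over non-irradiated nuclei their median was 0.34, and 0.16 in clusters 0 and 1. In that pair 11 of 31 were past the fold higher and 3 lower, where 11.6% and 9.74% of all genes were. Cdkn1a, the cell cycle inhibitor that p53 induces, had 21, 9 and 2 UMIs, and the interval of its saline over non-irradiated ratio, 0.989 to 45.5, included 1. Mdm2, which degrades p53, stood at 102, 89.3 and 105 CPM. Pvt1, a noncoding RNA, had 77, 46 and 19 UMIs, a ratio of 2.57 (1.48 to 4.65).

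Mitochondrially encoded genes, whose RNA is not nuclear, were higher with saline than without irradiation in 8 of 9 cases, with a median log2 ratio of 0.52, and 0.58 in clusters 0 and 1. Of these genes 4 of 8 were past the fold higher and 0 lower, and 0 of 8 either way with pilocarpine over saline. Nuclear-encoded genes of oxidative phosphorylation had a median log2 ratio of 0.06 between saline and non-irradiated nuclei, with 4 of 50 past the fold higher and 3 lower, and -0.05 between pilocarpine and saline, with 1 of 50 higher and 2 lower. Genes of the unfolded protein response had medians of -0.11 and 0.18 in the same comparisons, with 0 of 20 and 3 of 21 past the fold higher. Calcium handling genes had medians of 0.07 and -0.04. Adipogenic and lipid genes had a median of 0.42 with saline over non-irradiated, and 0.02 in clusters 0 and 1, with 10 of 24 past the fold higher and 3 lower. TGF-beta and BMP ligands, receptors and regulators had a median of 0.25, and -0.04 in clusters 0 and 1, with 5 of 25 past the fold higher and 0 lower. Receptors for growth factors and matrix had a median of 0.09, and senescence and secreted factors a median of 0.46 that was 0.03 in clusters 0 and 1.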

How the data were processed

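Nuclei of mouse submandibular glands were profiled in 3 libraries, and the gene by barcode tables of UMI counts were used as the authors deposited them. The submitters' processing notes name Cell Ranger 7.0.1 and the build GRCm38. The annotation and whether intronic reads and strand were used are not given in the sources used here. Of 10288, 10161 and 12062 deposited barcodes (irradiated + pilocarpine, irradiated + saline, non-irradiated), 8376, 8622 and 10635 were kept, with 500 genes or more and no more than 5% of UMIs mitochondrial. Deposited counts totalled 34322111, 29946943 and 26417958 UMIs.

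Fibroblast nuclei were chosen by the marker rule given above, and their UMIs were summed per library and scaled to counts per 1000000 (CPM). No test was run, since each group is 1 library. Shares carry exact Clopper-Pearson intervals, their differences Newcombe intervals, CPM exact Poisson intervals, and ratios exact conditional binomial intervals, all at 95% and for counting error only. A list's median is of log2 ratios of CPM + 1 over its genes with at least 10 UMIs in the pair of libraries. The fold of 1.5 was read among genes with at least 30 UMIs. Fibroblast nuclei were clustered with scanpy 1.11.5 and leidenalg 0.10.2 on 2000 variable genes, 20 components and 15 neighbours, at a resolution of 0.5. No doublet caller was run, and leaving out the 10% of nuclei with most UMIs was tried in its place. The calculations ran in Python 3.11.15 with scipy 1.17.1 and were tested on simulated data.

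Named genes were, in each of 2 comparisons (irradiated + saline over non-irradiated and irradiated + pilocarpine over irradiated + saline), the 10 most above and 10 most below. They were ranked by the interval bound nearest to 1, among genes with at least 50 UMIs. In the library where it was higher, a gene also had to be at least 2 times as high as in all other nuclei. Genes of the rule, mitochondrial, ribosomal, immunoglobulin, sex-linked and predicted genes were left out. To these come the 3 members farthest above and below in lists described, and a fixed set of fibroblast genes. Further genes were chosen after their values were seen, and a few that the rule names are not reported here. The choice of nuclei, the lists and the rules were made with earlier results of these data known. Alternatives changed the rule, depth, clusters, pseudocount and minimum counts, or subtracted RNA of other nuclei.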

Additional observations from a re-analysis of the deposited data

How the results depend on the processing

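No paired analysis was possible because the groups hold a single library apiece, which also bars leaving a library out. Of 420 alternative values of list medians 326 moved by at most 0.2 on the log2 scale. Depth limits genes with few UMIs, whose counting intervals are wide.

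The share of fibroblast nuclei with saline differed from the non-irradiated share by -0.817 points with no excluded gene allowed and 1.65 points after thinning to 800 UMIs. Thinning, here and below, left out nuclei with fewer than 800 UMIs. With pilocarpine over saline the share differed by 1.22 points at 1000 or more genes, and with pilocarpine over non-irradiated by 1.38 points there, 2.08 points at 200 or more genes and 0.812 points with no excluded gene.

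Genes past the fold, saline over non-irradiated, numbered 584 higher and 659 lower with no excluded gene, 622 and 732 after thinning, 729 and 742 in clusters 0 and 1, 2266 and 1831 at 10 UMIs or more, and 505 and 589 at 100 UMIs or more. Pilocarpine over saline, they numbered 1412 and 1374 at 10 UMIs, 180 and 213 at 100 UMIs, 1052 higher without the nuclei above the median in acinar RNA, and 1270 lower after subtraction of other nuclei's RNA scaled on acinar products. Pilocarpine over non-irradiated, they numbered 2164 and 1618 at 10 UMIs, 389 and 452 at 100 UMIs, 658 and 600 with no excluded gene, and 668 and 749 higher after thinning and in clusters 0 and 1.

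Saline over non-irradiated, with no excluded gene the medians were -0.29 for fibrillar collagens, 0.54 for interferon response, 0.47 for MHC class I and 0.84 for glucocorticoid genes. With a pseudocount of 10 CPM they were 0.42 for proteoglycans, 0.61 for interferon, 0.47 for MHC class I and 0.63 for glucocorticoid genes. Without the 10% of nuclei with most UMIs, collagens stood at -0.23 and proteoglycans at 0.42, after thinning at -0.18 and 0.25, as means over nuclei at -0.25 and 0.41, and in clusters 0 and 1 at -0.29 and 0.24. In those clusters interferon genes stood at 0.63 and p53 genes at -0.0051. Collagens stood at 0.34 without the nuclei richer in acinar RNA. Subtraction scaled on acinar products gave -0.54 for collagens, -0.12 for proteoglycans, 0.34 for interferon, -0.29 for proteases, -0.14 for growth factors and -0.24 for complement. Scaled on epithelial markers it gave -0.40, 0.12, 0.53, -0.085, -0.062 and -0.045 for those lists in turn.

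Pilocarpine over saline, medians were 0.55 for interferon, 1.00 for MHC class I and 0.048 for glucocorticoid genes with no excluded gene. Subtraction scaled on acinar products gave 0.57 for interferon, 0.065 for glucocorticoid genes, 0.51 for collagens and 0.34 for proteoglycans. MHC class I stood at 0.96 after thinning and collagens at -0.11 without the nuclei richer in acinar RNA.

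Of the genes named by the rule and past the fold, those that changed direction were, saline over non-irradiated, Dpp4 (3.47, subtraction on epithelial markers, which left it 0 CPM in the non-irradiated library, so the value is set by the pseudocount), Fgf10 (-0.14, subtraction on acinar products), Grm7 (-0.49, clusters 0 and 1) and Nkain2 (0.24 with 4 rule markers, 0.58 with no excluded gene), and, pilocarpine over saline, Rsad2 (0.29, no excluded gene). Below the fold, Fap and Slit2 with saline over non-irradiated turned to ratios of 0.943 and 0.701 in clusters 0 and 1. The cause was not tested. The values in clusters 0 and 1 and the subtraction on epithelial markers were added after the data were seen.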
